A study of Mus musculus with 8 samples.

Results

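Aminoacyl-tRNA synthetases are the enzymes that load each tRNA with its amino acid, and their mRNAs were examined in *iMLL-AF9* mouse leukemic cells treated with IOX5, an inhibitor of the HIF prolyl hydroxylases (PHDs), or with DMSO. The 36 genes were taken by symbol from a list of 20 enzymes that work in the cytosol and 16 that work in mitochondria (gene names ending in 2), among 54838 genes listed. All 36 were found and all 36 passed the filter on low counts. The list was not drawn up from measured values, although earlier results of these data were known when it was made.

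RNA-seq was performed on 8 samples, 4 treated with DMSO, the solvent used as the vehicle control, and 4 treated with IOX5, with replicates numbered 1 to 4 in each group. The cells of both groups carry the inducible *MLL-AF9* fusion oncogene, which is switched on by doxycycline, come from mice on the C57BL/6 background and are labelled WT for genotype, bone marrow for tissue and leukaemic stem cells for cell type. The description of the series calls them preleukaemic. For these RNA-seq samples, the dose of IOX5, the duration of treatment, the age of the mice and what each replicate number marks are not given in the sources used here, so p-values measure the spread between these samples, which may be technical. Between 12343770 and 14116054 reads per DMSO sample and between 11351507 and 12708888 per IOX5 sample were counted on genes.

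Of 8 markers of myeloid and *MLL-AF9* cells, all 8 were detected in both groups, with a summed level of 2442 to 4596 CPM in DMSO and 3048 to 5323 CPM in IOX5 (CPM, counts scaled to a common library size). Of 12 markers of other cell types, 2 were at 0 and 7 were under 1 CPM in every sample, and their sum ran from 88.5 to 187 CPM in DMSO and from 139.7 to 252 CPM in IOX5, most of it *Pecam1*. The stem cell marker *Kit* was at 74.7 ± 25.5 CPM in DMSO and 97.5 ± 29.6 CPM in IOX5 (SD, n = 4). In an edgeR fit blocked on replicate number, 4 of the 8 myeloid markers were called higher and 0 lower. These were *Cd33*, *Itgam*, *Kit* and *Mpo*, with adjusted p from 0.00240 to 0.0196. Of the 5 other markers tested, 2 were called higher and 0 lower (*Pecam1* and *Hbb-bt*, 0.00134 and 0.000675). Over all genes tested, this fit called 11.2% higher and 9.43% lower. Without the block edgeR called 0 of either list and DESeq2 called 1 myeloid marker higher, against 489 of the 12405 genes tested. An unadjusted p under 0.05 by edgeR was found for 1 myeloid and 0 other markers, against 2506 of the 12405. Whether the makeup of the cultures had a part in the results was not tested, and in bulk samples fewer cells of a type and less RNA per cell cannot be told apart. As a check of the treatment, 6 HIF target genes were all higher with IOX5, from a log2 fold change of 0.39 for *Vegfa* to 1.38 for *Ankrd37*. Of these 6, 4 were called by edgeR's quasi-likelihood test at an adjusted p under 0.05, against 0.774% of the 12405 genes tested.

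Each synthetase joins 1 amino acid to the tRNAs that read its codons, in a reaction that uses ATP. Cells keep separate enzymes for protein synthesis in the cytosol and for the proteins encoded by mitochondrial DNA, although some genes, such as *Gars* and *Kars*, supply both places. In animal cells a group of the cytosolic enzymes is held together in the multi-synthetase complex by scaffold proteins. Many cytosolic synthetase genes are known targets of ATF4, the transcription factor made when uncharged tRNA activates the kinase GCN2.

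In DMSO the cytosolic enzymes were the more abundant mRNAs. Per kilobase of the principal transcript, they ran from 30.5 CPM per kb for *Cars* to 203 CPM per kb for *Nars*, with a median of 76.9. The mitochondrial enzymes other than *Lars2* ran from 2.33 CPM per kb for *Wars2* to 28.3 CPM per kb for *Tars2*, with a median of 7.44, so that the 2 ranges did not overlap. For the same amino acid, the cytosolic mRNA exceeded its mitochondrial partner by between 1.53-fold, for *Cars* over *Cars2*, and 49.6-fold, for *Nars* over *Nars2*. *Mars2* is a single exon of 11294 bases in the annotation, which lowers its level per kilobase.

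**Figure D1:**
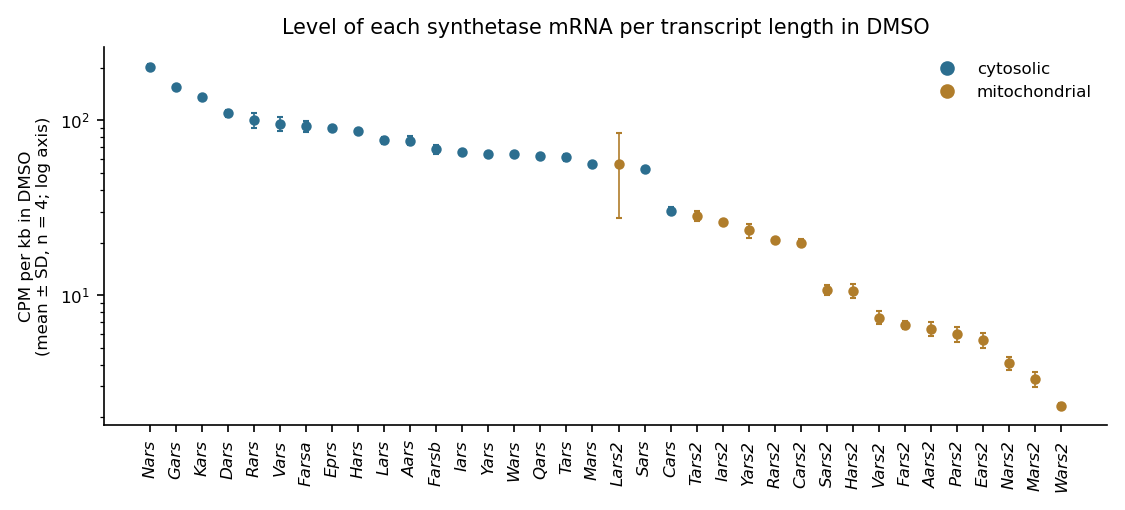
Level of each synthetase mRNA in the 4 DMSO samples, in CPM per kilobase of the principal transcript on a log axis, as mean ± SD (n = 4), ordered from high to low. The cytosolic genes lie between 30.5 and 203 and the mitochondrial genes other than *Lars2* between 2.33 and 28.3, while *Lars2* has the widest spread.

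Cytosolic synthetase mRNAs lay lower in IOX5-treated cells, by a modest amount shared by most of them. The median log2 fold change (IOX5 over DMSO) of the 20 cytosolic genes was -0.265 (a change of -16.8%), against 0.02 over all genes tested. The fold change was negative in 19 of 20 and ran from -0.36 for *Rars* to 0.06 for *Farsa*. In 14 of 20 every IOX5 sample lay below every DMSO sample, against 8.3% of all genes tested. In 17 of 20 the IOX5 sample was the lower one within all 4 replicate numbers, against 19.8% of all genes tested. Among the 2943 genes with a mean level at least that of the lowest cytosolic synthetase, the median log2 fold change was -0.054. Of these 2943, 531 had every IOX5 sample below every DMSO sample, and 1043 were lower within all 4 numbers.

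**Figure D2:**
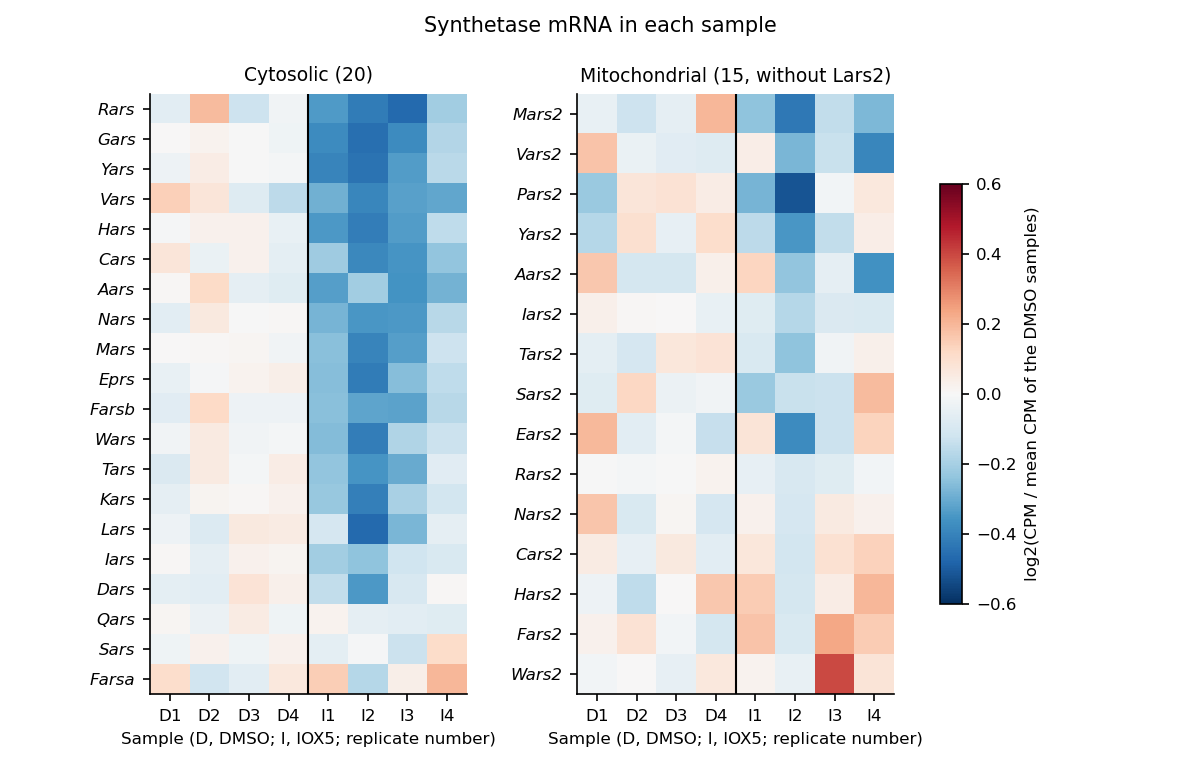
Level of each synthetase mRNA in each sample as log2 of its CPM over the mean CPM of the DMSO samples, for 20 cytosolic genes (left) and 15 mitochondrial genes (right), ordered by fold change, with the DMSO samples left of each line and the IOX5 samples right of it. The IOX5 columns are blue for most cytosolic genes and mixed for the mitochondrial genes, and IOX5 replicate 2 is the lowest IOX5 sample in 15 of 20 cytosolic and 12 of 15 mitochondrial genes.

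How many of these differences passed the test depended on whether the replicate number was in the model. Without it, edgeR called 1 cytosolic gene lower (*Gars*) and 0 higher, against 1.25% of all genes tested called lower. Of the 20, 16 had an unadjusted p under 0.05, all in the negative direction. In either direction, 2506 of the 12405 genes tested and 953 of the 2943 genes at the level of the cytosolic synthetases had one. Samples that share a number deviated together, and with the number as a block edgeR called 15 of 20 lower and 0 higher, against 9.43% of all genes tested called lower and 11.2% called higher. Among the 2943 genes whose mean level was at least that of the lowest cytosolic synthetase, 19.4% were called lower with the block. DESeq2 without a block called 14 of 20 lower, against 4.85% of all genes tested and 381 of those 2943 genes. All 14 were among the 15. The count with the block was 4 when replicate number 3 was left out and 11 to 15 when another number was, and the count without the block was 10 when IOX5 replicate 4 was left out and 0 when any other sample was.

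*Gars* encodes glycyl-tRNA synthetase, lies at chr6:55038007-55079500 (GRCm38) and was the cytosolic gene that passed the test without the block. It was at 372, 376, 370.2 and 365 CPM in DMSO replicates 1 to 4 and at 286, 271, 286 and 328 CPM in IOX5 replicates 1 to 4. The groups did not overlap, the 4 DMSO samples lay close together, and IOX5 replicate 4 was the nearest to them. The log2 fold change was -0.34 ± 0.07 (SE; adjusted p = 0.0429 by edgeR with Benjamini-Hochberg adjustment, 0.00399 with the block), and this call was lost without any sample other than IOX5 replicate 4 (adjusted p from 0.0642 to 0.148).

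*Yars* (tyrosyl-tRNA synthetase, chr4:129189760-129219607) missed the threshold narrowly in the fit without the block. Its level was 183, 193, 186 and 185 CPM in DMSO and 142, 138, 148 and 167 CPM in IOX5. Again no IOX5 sample reached a DMSO sample, and replicate 4 was the highest of the IOX5 samples. The log2 fold change was -0.33 ± 0.07 (edgeR adjusted p = 0.05001, or 0.00496 with the block).

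*Nars*, for asparagine, was the most abundant of the family at 532, 579, 555 and 558 CPM in DMSO and 458, 437, 438 and 495 CPM in IOX5. *Aars*, for alanine (chr8:111033144-111057664), was at 442, 477, 425 and 418 CPM in DMSO and 350.5, 382, 343 and 362 CPM in IOX5. Both fell with the block, by 0.28 and 0.29 on the log2 scale (adjusted p = 0.00958 and 0.00577), and neither was called without it (0.0515 and 0.0518). *Aars* shares 1326 bases of exon on the same strand with *Exosc6*, which had 0 reads.

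*Cars*, for cysteine (chr7:143557230-143600090), was at 103, 95.5, 99.9 and 94.2 CPM in DMSO and 84.65, 75.1, 76.8 and 83.3 CPM in IOX5. *Hars*, for histidine, was at 172, 176, 176 and 167 CPM in DMSO and 136, 129.5, 137 and 155 CPM in IOX5. In each of these genes the lowest DMSO sample stood above the highest IOX5 sample. With the block *Cars* fell by 0.30 and *Hars* by 0.31 on the log2 scale (edgeR adjusted p = 0.00661 and 0.00725, or 0.0515 and 0.0520 without it). *Hars* overlaps its mitochondrial partner *Hars2* head to head on the opposite strand over 195 exonic bases, and the reads were told apart by strand.

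The other 9 cytosolic genes called with the block were *Rars*, *Vars*, *Mars*, *Eprs*, *Farsb*, *Wars*, *Tars*, *Kars* and *Lars*, for arginine, valine, methionine, glutamate with proline, phenylalanine, tryptophan, threonine, lysine and leucine. Their log2 fold changes with the block ran from -0.36 for *Rars* to -0.22 for *Lars*, with adjusted p from 0.00524 to 0.0411. Of these 9, *Tars* and *Lars* overlapped between the groups and the other 7 did not.

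The 5 cytosolic genes that were not called with the block had smaller differences. *Iars*, for isoleucine, had a log2 fold change of -0.16 and no overlap between the groups (edgeR adjusted p = 0.0715 with the block). *Dars*, for aspartate, had -0.14 and was lower within each number (0.138). *Qars*, *Sars* and *Farsa*, for glutamine, serine and phenylalanine, had -0.04, -0.02 and 0.06 (0.658, 0.838 and 0.564), and their 95% intervals with the block all held 0. A processed pseudogene of *Iars*, *Gm4849*, is 96.0% identical to it over 1656 bases and had 9 reads in all samples together.

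The median fold change was negative inside and outside the multi-synthetase complex. The 8 complex members had a median log2 fold change of -0.22 with 5 called lower with the block, and the other 12 cytosolic enzymes had -0.29 with 10 called. With the block, 9.43% of all genes tested and 19.4% of the 2943 genes at the level of the cytosolic synthetases were called lower. The 3 scaffold proteins were all negative. *Eef1e1* (AIMP3) fell from 58.6 ± 2.76 to 49.4 ± 7.03 CPM (SD, n = 4; log2 fold change -0.25, edgeR adjusted p = 0.0327 with the block and 0.208 without). *Aimp1* had -0.20 and *Aimp2* -0.18, and neither was called in either fit. By fold of the catalytic domain, 9 class I enzymes had a median of -0.27 and 10 class II enzymes -0.25. In each class 7 were called lower with the block, against the same shares. *Eprs* holds a domain of both classes and was in neither count.

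The size of the difference varied between IOX5 samples. Averaged over the 20 cytosolic genes, the log2 level relative to the DMSO mean was -0.22, -0.33, -0.26 and -0.12 in IOX5 replicates 1 to 4, while the DMSO samples lay between -0.01 and 0.02. All 4 IOX5 samples were thus below all 4 DMSO samples, replicate 2 the furthest and replicate 4 the least. Replicate 4 was the highest IOX5 sample in 16 of 20 cytosolic genes, against 26.4% of all genes tested. Replicate 2 was the lowest in 15 of 20, against 32.9%. Replicate 2 also had the fewest reads on genes (11351507) and the largest share of reads not assigned to a gene (22.6%), and the part of depth was not tested. The cytosolic median was -0.23 without IOX5 replicate 2 and -0.30 without IOX5 replicate 4.

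**Figure D3:**
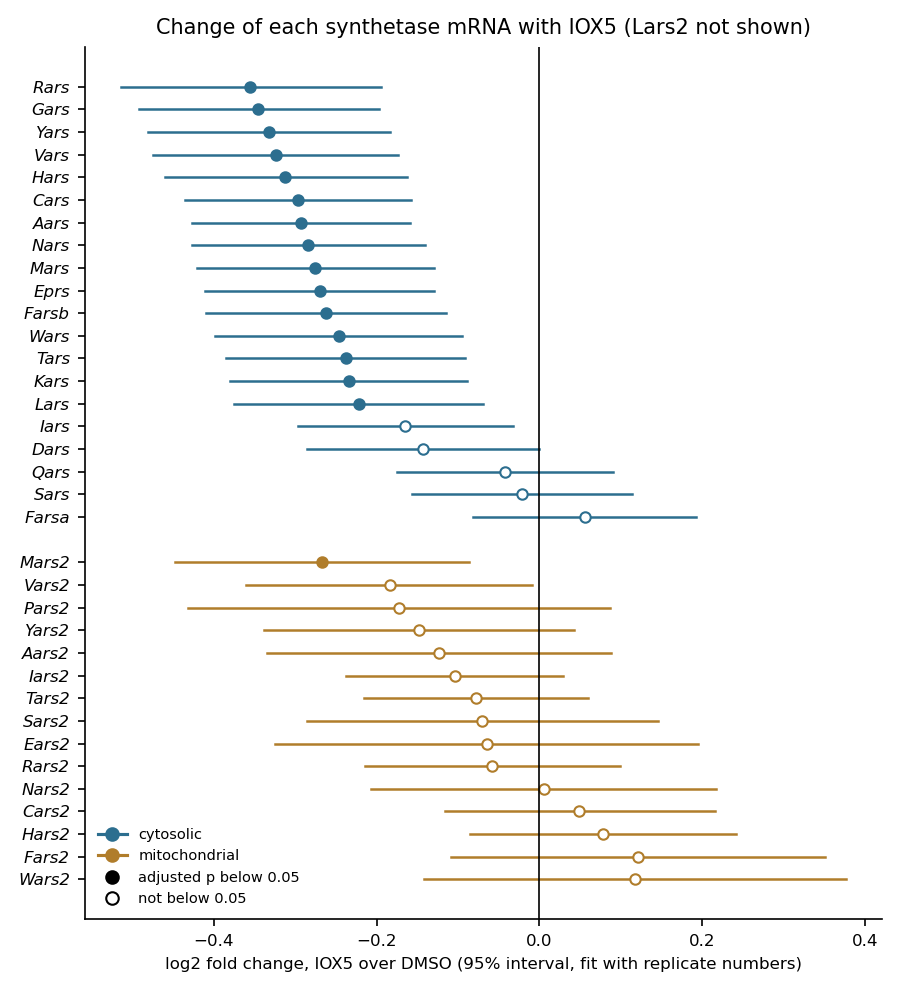
Log2 fold change (IOX5 over DMSO) of 20 cytosolic and 15 mitochondrial synthetase mRNAs from edgeR with the number as a block, with 95% intervals (4 samples per group), where a filled point has an adjusted p under 0.05. Filled points are 15 of the cytosolic genes and 1 mitochondrial gene, *Mars2*, and the median interval is wider for the mitochondrial genes.

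The mitochondrial enzymes other than *Lars2* differed less, and in both directions. Their median log2 fold change was -0.065 (a change of -4.405%), with 10 of 15 negative, and the range was from -0.27 for *Mars2* to 0.12 for *Wars2* and *Fars2*. Averaged over the 15 genes, the log2 level relative to the DMSO mean was -0.025, -0.214, -0.005 and -0.002 in IOX5 replicates 1 to 4. The DMSO samples lay between -0.021 and 0.015, so IOX5 replicate 2 was the furthest. Without IOX5 replicate 2 the median was -0.043. Without the block edgeR called 0 of 15 in either direction, against 1.25% of all genes tested called lower and 0.774% higher. DESeq2 called 0, against 4.85% lower and 489 of the 12405 genes higher. An unadjusted p under 0.05 by edgeR was found for 1, against 2506 of the 12405 genes tested. With the block 1 of 15 was called lower, against 9.43% of all genes tested, and 0 higher. In 3 of 15 (*Mars2*, *Iars2* and *Rars2*) the IOX5 samples all lay below the DMSO samples, against 8.3% of all genes tested, and in 0 they all lay above, against 5.98%.

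*Mars2*, the mitochondrial methionyl-tRNA synthetase (chr1:55237177-55248470), was the one called. It was at 36.2, 34.2, 35.99 and 42.9 CPM in DMSO and 31.55, 27.7, 33.7 and 31.0 CPM in IOX5. The groups were separated by less than 1 CPM between DMSO replicate 2 and IOX5 replicate 3. The log2 fold change was -0.27 (edgeR adjusted p = 0.0390 with the block and 0.166 without). DESeq2 with the block did not call it, nor did edgeR with the block when number 1, 3 or 4 was left out.

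*Iars2*, for isoleucine (chr1:185284726-185329396), was at 147, 144, 144 and 139 CPM in DMSO and 137, 127.5, 135 and 135 CPM in IOX5. Its difference was small beside its level, at a log2 fold change of -0.10 (edgeR adjusted p = 0.248 with the block). *Vars2*, for valine (chr17:35655634-35667592), was at 37.1, 32.0, 31.4 and 31.2 CPM in DMSO and 33.9, 27.2, 30.0 and 25.1 CPM in IOX5, where replicate 1 was the highest of both groups (log2 fold change -0.18, 0.125 with the block). *Rars2* differed by -0.06 on the log2 scale (0.605 with the block), although its groups did not overlap.

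On the other side of 0, *Wars2*, for tryptophan (chr3:99141068-99239186), was at 10.2, 10.3, 9.91 and 10.7 CPM in DMSO and 10.4, 9.95, 13.5 and 10.8 CPM in IOX5. Here IOX5 replicate 3 alone stood above the rest. *Fars2*, for phenylalanine (chr13:36117412-36726280), was at 14.6, 15.2, 14.2 and 13.4 CPM in DMSO and 16.2, 13.5, 16.9 and 16.0 CPM in IOX5, with replicate 2 within the DMSO range. Neither was called (edgeR adjusted p = 0.518 and 0.443 with the block). *Hars2* had 0.08 and was higher within all 4 numbers, and *Cars2* and *Nars2* had 0.05 and 0.004. The remaining 6, *Pars2*, *Yars2*, *Aars2*, *Tars2*, *Sars2* and *Ears2*, ran from -0.17 to -0.06.

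The mitochondrial mRNAs were measured less precisely. With the block, the median standard error of the log2 fold change was 0.09, against 0.07 for the cytosolic genes. Of the 15 95% intervals, 13 held 0, 7 held the cytosolic median (-0.27), and 8 lay wholly above it. A change of the cytosolic size was therefore within the interval for 7 of 15 mitochondrial genes and outside it for 8.

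The enzymes of the 2 compartments were then compared directly, as the log2 ratio of the cytosolic to the mitochondrial mRNA for the same amino acid within each sample. This ratio does not depend on library scaling. The 16 pairs are not independent, because *Eprs* was set over both *Ears2* and *Pars2*, and *Fars2* under both *Farsa* and *Farsb*. The ratio was lower with IOX5 in 15 of 16 pairs, with a median difference of -0.175. In 6 pairs all IOX5 samples lay below all DMSO samples (exact two-sided permutation p = 0.0286 each, the smallest that 4 against 4 allows), and 0 of 16 passed Benjamini-Hochberg adjustment, for which the lowest adjusted p was 0.0762. With samples of like number taken as pairs, although what a number marks is not stated, 10 of 16 ratios were lower in all 4.

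The pair with the largest difference was *Hars* with *Hars2*, which share a promoter region. Its log2 ratio was 2.31, 2.46, 2.30 and 2.07 in DMSO and 1.79, 1.97, 1.90 and 1.93 in IOX5, a difference of -0.39. The lowest DMSO sample, replicate 4, was nearest to the IOX5 samples. *Farsb* over *Fars2* differed by -0.38, *Wars* over *Wars2* by -0.36, *Cars* over *Cars2* by -0.34, *Rars* over *Rars2* by -0.30 and *Tars* over *Tars2* by -0.16. These are the other 5 pairs without overlap, and *Wars* over *Wars2* includes the single high *Wars2* sample. *Mars* over *Mars2* (-0.01) and *Sars* over *Sars2* (0.05) were the closest to no difference. *Mars* and *Mars2* both had a log2 fold change of -0.27, and neither *Sars* nor *Sars2* was called.

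**Figure D4:**
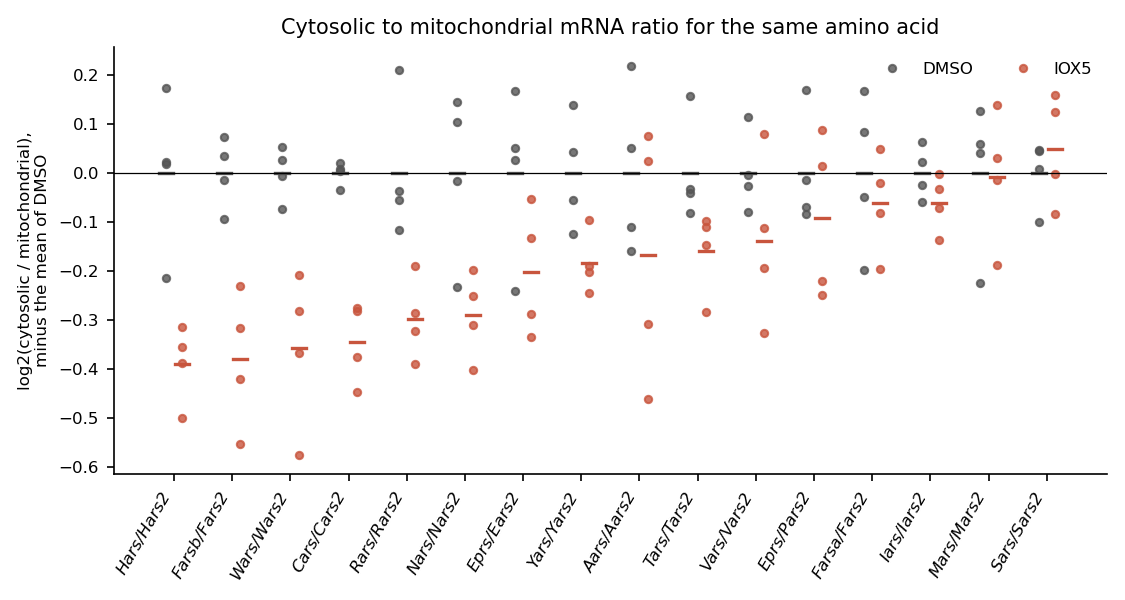
Log2 ratio of the cytosolic to the mitochondrial mRNA for the same amino acid in each of 8 samples, shown relative to the DMSO mean of that pair (points, samples, bars, group means), for 16 pairs ordered by difference. In the pairs at the left the IOX5 samples lie below the DMSO samples, from -0.39 for *Hars* over *Hars2*, and at the right the groups overlap.

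*Lars2*, the mitochondrial leucyl-tRNA synthetase (chr9:123366927-123462666), is given apart, because in mouse libraries its counts are known to move with reads from ribosomal RNA. It was at 184, 380.5, 134 and 174 CPM in DMSO and 503, 818, 358 and 358 CPM in IOX5. Within each number the IOX5 sample was higher, but DMSO replicate 2 lay above IOX5 replicates 3 and 4, so the groups overlapped. The log2 fold change was 1.22 ± 0.37 (SE; edgeR adjusted p = 0.116), and with the block it was 1.25 (2.28e-06). This direction was opposite to that of the cytosolic genes, and *Lars2* alone took 20.03% to 41.9% of the reads on the 16 mitochondrial genes in DMSO and 40.4% to 63.7% in IOX5.

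A pair of RNAs from the ribosomal RNA repeat annotated on chromosome 17, *Gm42418* and *Gm26917*, moved with it. *Gm42418* was at 453, 772.5, 332 and 449 CPM in DMSO and 1286, 1052, 677 and 662 CPM in IOX5. *Gm26917* was at 363, 704, 287 and 371 CPM in DMSO and 540.4, 1315, 859 and 1016 CPM in IOX5. For both, DMSO replicate 2 was the highest DMSO sample, as for *Lars2*. Their log2 fold changes were 0.87 and 1.11 (edgeR adjusted p = 0.147 and 0.108, or 0.000714 and 0.000171 with the block). The ratio of *Lars2* to *Gm42418* stayed within 0.388 to 0.493 in DMSO and ranged from 0.391 to 0.777 in IOX5. The ratio to *Gm26917* varied more, from 0.352 in IOX5 replicate 4 to 0.931 in IOX5 replicate 1. The mitochondrial ribosomal RNAs *mt-Rnr1* and *mt-Rnr2* had 0.02 and -0.17 and were not called. *AY036118* was at 0 reads in every sample and *CT010467.1* did not pass the filter. No annotated *Lars2* transcript aligned to the transcripts of these 6 genes at 85% identity or more. The part of ribosomal RNA reads in the *Lars2* difference was not tested.

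**Figure D5:**
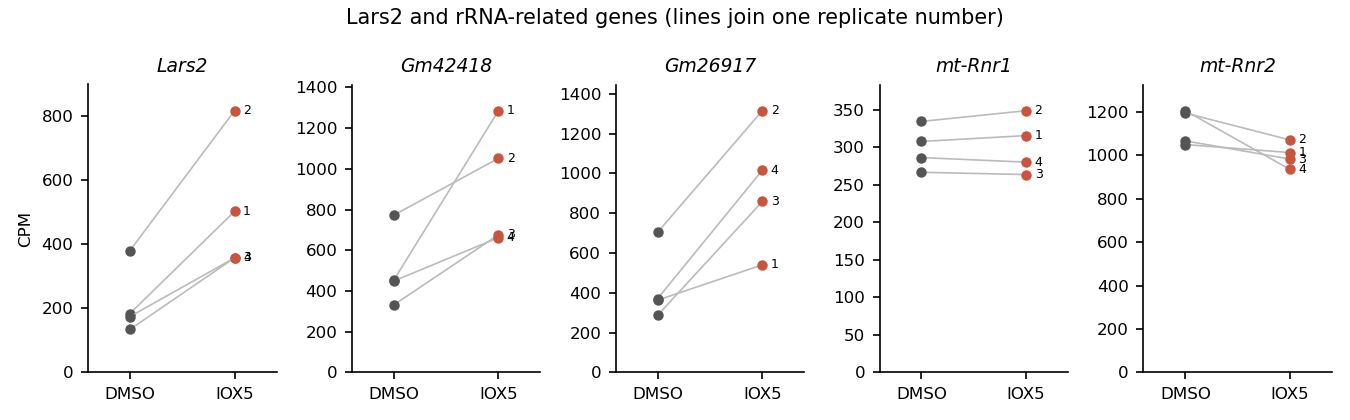
CPM of *Lars2*, of *Gm42418* and *Gm26917* and of the mitochondrial ribosomal RNAs *mt-Rnr1* and *mt-Rnr2* in each sample, on linear axes that start at 0, with lines joining DMSO and IOX5 samples of 1 replicate number (marked at the right). *Lars2*, *Gm42418* and *Gm26917* are higher in IOX5 within all 4 numbers, while *mt-Rnr1* and *mt-Rnr2* are not.

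The other genes of tRNA charging and tRNA supply were read from lists. There were 11 other genes of charging, including the subunits of the glutamyl-tRNA amidotransferase and the enzymes of selenocysteine synthesis on tRNA. Of these, 0 were called by edgeR in either fit, 0 by DESeq2 and 0 had an unadjusted p under 0.05. Over all genes tested, 2506 of 12405 had such a p. EdgeR without the block called 1.25% of them lower and 0.774% higher, and DESeq2 called 4.85% lower. The median log2 fold change of the 11 was -0.09. *Gatc*, a subunit of the amidotransferase, was at 20.6 ± 0.909 CPM in DMSO and 18.4 ± 1.43 CPM in IOX5 (SD, n = 4). Of 41 genes of tRNA transcription, processing and export, 1 was called lower without the block, and 5 lower and 2 higher with it, where 9.43% of all genes tested were called lower and 11.2% higher. The one was *Polr3f*, a subunit of RNA polymerase III, which fell from 49.3 ± 1.70 to 36.5 ± 2.68 CPM (log2 fold change -0.43, adjusted p = 0.0260). *Xpot*, the exporter of tRNA from the nucleus, fell from 301 ± 5.87 to 253 ± 12.8 CPM in the fit with the block (-0.25, 0.0130, or 0.0526 without). Of 59 tRNA modification genes tested, 1 was called lower without the block and 9 lower and 0 higher with it, at the same shares over all genes. The 2 with the smallest p without the block were *Thada* (-0.29, edgeR adjusted p = 0.0385) and the tRNA methyltransferase *Nsun2* (-0.29, 0.0886, or 0.0130 with the block).

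Genes of the response to uncharged tRNA through GCN2 and ATF4 were also examined. The list held *Eif2ak4*, which encodes GCN2 itself, and *Gcn1l1* as well as genes that respond. Of 26 such genes, 6 were called lower and 0 higher without the block, against 1.25% and 0.774% of all genes tested. With the block 12 were called lower and 1 higher, against 9.43% and 11.2%, and their median log2 fold change was -0.23. *Chac1*, a glutathione-degrading enzyme, fell from 17.2 ± 2.63 to 7.07 ± 0.811 CPM (SD, n = 4; log2 fold change -1.28, edgeR adjusted p = 0.0157). *Slc7a1*, the arginine and lysine transporter, fell from 351 ± 21.03 to 263 ± 9.32 CPM (-0.41, 0.0230). The other 4 called were *Slc7a5*, *Trib3*, *Shmt2* and *Mthfd2*. *Atf4* itself was at 496, 538, 538 and 541 CPM in DMSO and 420, 428, 427 and 506 CPM in IOX5, where replicate 4 alone lay within the DMSO range. It was called with the block (-0.25, 0.0184) and not without it (0.111). *Ddit4*, which is also a HIF target, was the one called higher (0.76, 2.5e-05 with the block).

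Further groups serve for comparison. Of 51 cytosolic initiation and elongation factors tested, the median log2 fold change was -0.13, with 43 negative, and 14 were called lower and 1 higher with the block, against 9.43% and 11.2% of all genes tested and 19.4% lower among the 2943 genes at the level of the cytosolic synthetases. Of 77 mitochondrial ribosomal protein genes tested, the median was -0.08, with 59 negative, and 1 was called lower and 0 higher with the block. The cytosolic synthetases thus had the most negative median of the 4 groups of the translation machinery (-0.265), and no test of the difference between these groups was made.

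The promoters of the synthetases were read for the C/EBP-ATF response element, the motif that ATF4 binds, because its targets include several of these genes. RefSeq windows from 250 bases before to 50 bases after the start (GRCm38.p6) were at hand for 27 of the 36 genes, 13 cytosolic and 14 mitochondrial. The letters TGATGNAA on either strand were present in 5 of 13 cytosolic and 0 of 14 mitochondrial windows, against 3.97% of all 32851 windows and 2.29% of the 11874 windows of genes tested. These 5 windows held 6 matches, 2 of them in *Aars*, which are printed below 5′ to 3′ on the strand of the gene, with the match in capitals, since these are the cytosolic genes whose start region carries these letters. They lie on the plus strand of the genome apart from *Tars*, at chr8:111033690-111033747 and chr8:111033811-111033868 for *Aars*, chr6:55037931-55037988 for *Gars*, chr13:49682097-49682154 for *Iars*, chr15:11399656-11399713 for *Tars* and chr4:129189866-129189923 for *Yars*.
Aars, first match: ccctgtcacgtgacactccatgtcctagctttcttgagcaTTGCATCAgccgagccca
Aars, second match: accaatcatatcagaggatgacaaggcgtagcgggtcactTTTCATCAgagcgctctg
Gars: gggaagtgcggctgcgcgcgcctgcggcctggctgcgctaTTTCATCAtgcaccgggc
Iars: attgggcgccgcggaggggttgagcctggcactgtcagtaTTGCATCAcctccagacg
Tars: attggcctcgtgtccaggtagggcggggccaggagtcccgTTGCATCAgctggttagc
Yars: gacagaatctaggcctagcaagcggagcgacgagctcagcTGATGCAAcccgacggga

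The first base of the match lay at -112 and 10 in *Aars*, -30 in *Gars*, -15 in *Tars*, 8 in *Iars* and 4 in *Yars*, where positions above 0 are past the start. The first match of *Aars* and those of *Iars* and *Tars* hold the same 8 letters, which *Yars* holds on the other strand. The second match of *Aars* holds the letters of the *Gars* match, which differ from the others within the N of the motif. Of these 5 genes, *Aars*, *Gars*, *Tars* and *Yars* were called lower with the block and *Iars* was not. This compares with 15 of all 20 cytosolic genes and 9.43% of all genes tested. Of the cytosolic genes with a window and no match, *Eprs*, *Farsb*, *Kars* and *Mars* were called lower. *Dars*, *Farsa*, *Qars* and *Sars* were not. The E-box letters CACGTG were in 4 of 13 cytosolic and 1 of 14 mitochondrial windows, against 7.15% of all windows and 10.2% of those of genes tested. The core of the hypoxia response element, ACGTG, which is contained in CACGTG, was in 6 of 13 and 4 of 14, against 19.6% and 26.1%. Both were searched on both strands. A match of letters is a description of the sequence and says nothing about binding.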

How the data were processed

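RNA-seq of 4 DMSO and 4 IOX5 samples was examined. Per the methods, poly(A) RNA was made into directional libraries and sequenced single-end, and the authors trimmed reads with Cutadapt 1.18, mapped them to GRCm38 with HISAT2 2.2.1 and deposited read counts per Ensembl gene from htseq-count (HTSeq 2.0.1), with no normalization and no pooling. The 5 summary lines of each file (20.6% to 22.6% of reads) were left out. Names and positions came from GENCODE M21.

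In R 4.3.3, edgeR 4.0.16 (filterByExpr, TMM factors 0.988 to 1.03) compared IOX5 with DMSO by the quasi-likelihood test over 12405 genes, with Benjamini-Hochberg adjustment and calls at an adjusted p under 0.05. CPM were scaled with TMM, and log2 ratios used a prior count of 2. Ratios were compared by exact two-sided permutation over 70 assignments of the samples (smallest p 0.0286). Levels per kilobase used the principal transcript. The fits were also run on simulated counts. Those counts were built by replicate number, with a spread near that of the fit with the block. They therefore cannot show whether the block suits these data.

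Deviations from the group means were shared by DMSO and IOX5 samples of like number (correlation 0.758, 0.744, 0.732 and 0.636 for numbers 1 to 4). Between different numbers it reached 0.212 for numbers 1 and 2 and 0.685 for numbers 3 and 4, above the 0.636 of number 4. What a number marks is not stated, so the pairing comes from the data, and the fit with the number as a block is given where it changed a call. The common biological coefficient of variation was 0.202 without the block and 0.0794 with it. Alternatives were DESeq2 1.42.0 with and without the block, RLE or upper-quartile factors, voom of limma 3.58.1 with weighted samples, no filter, at least 10 counts in every sample, and samples or numbers left out.

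The members and lists were chosen with earlier results of these data known. All members are accounted for. Values in every sample are given for the members called without the block or, where fewer than 6 of a compartment were called, the 6 cytosolic and 4 mitochondrial members with the smallest p, the 2 mitochondrial members with the largest positive fold change (with *Fars2*, equal to 2 decimals), *Lars2*, and, beside results, *Atf4* and the ribosomal RNA genes. In other lists, the scaffold proteins and the 2 members with the smallest p were named, apart from 1 gene that is not reported here, and *Trib3*, *Slc7a5*, *Shmt2*, *Mthfd2*, *Atf4* and *Ddit4* were added after their values were seen.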

Additional observations from a re-analysis of the deposited data

Results flagged for a closer look

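In 72 combinations of member and group, the gap between the highest or lowest of 4 samples and its nearest neighbour, divided by the range, passed Dixon's critical value for 4 samples in 3, and chance flags about 1 in 20. *Wars* was at 121.1 CPM in DMSO replicate 2, against 115 to 116 CPM in the other DMSO samples. *Pars2* was at 11.22 CPM in DMSO replicate 1, against 13.5 to 13.9 CPM in the others. *Vars2* was at 37.06 CPM in DMSO replicate 1, against 31.2 to 32.0 CPM in the others. No IOX5 sample passed the value for any member.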

How the results depend on the processing

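The fold changes varied little with the processing and the number of calls varied much. Over all alternatives the cytosolic median stayed between -0.298 and -0.213 and the mitochondrial median between -0.11 and -0.043, or -0.063 with *Lars2* included, an alternative chosen after seeing the data. The difference between the partner ratios stayed between -0.222 and -0.15.

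The replicate block, which uses the pairing by number, moved the counts over all genes from 96 higher and 155 lower to 1394 and 1170, the cytosolic count from 1 to 15 lower, and the mitochondrial counts from 0 to 1 lower (*Mars2*) and 1 higher (*Lars2*). It changed no other call among the members. Within the numbers, 10 partner ratios were lower in all 4, against 6 without overlap. DESeq2 called 489 genes higher and 602 lower, and 952 and 787 with the block, with 14 and 15 cytosolic genes lower and 1 mitochondrial gene higher in both. Limma voom called 426 higher and 610 lower, with 13 cytosolic lower and 1 mitochondrial higher. With no filter, where 25386 genes were tested, 73 genes were lower. RLE factors, upper-quartile factors and no filter each left 0 cytosolic genes called, where *Gars* had an adjusted p of 0.0504, 0.0566 and 0.0916. With at least 10 counts in every sample 1 remained.

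Leaving out single samples without the block gave 0 to 130 genes higher and 0 to 333 lower, and 0 to 10 cytosolic genes lower. The 10 came without IOX5 replicate 4, and in the other 7 fits edgeR called 0 cytosolic genes while 14 to 16 had an unadjusted p under 0.05. With all 8 samples, 2506 of the 12405 genes tested had one. Leaving out a replicate number 1 to 4 in turn, with the block, gave 994, 1119, 642 and 1355 genes higher, 650, 1016, 403 and 1058 lower and 11, 11, 4 and 15 cytosolic genes lower, all among the 15. It gave 1 mitochondrial gene higher each time and 1 lower without number 2 and 0 otherwise. The cause of the low counts without number 3 was not tested. The partner pairs without overlap numbered 6 to 8.

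Fold changes near 0 reversed with samples left out. Over single samples *Sars* ran from -0.065 to 0.015, *Ears2* from -0.132 to 0.031 and *Nars2* from -0.026 to 0.064. With the block, *Sars* was 0.005 without number 3, *Ears2* 0.009 without number 2, and *Nars2* -0.01 and -0.032 without numbers 3 and 4. Of 720 member and alternative combinations, 588 kept direction and side of the threshold, 109 gained a call, 10 lost the *Gars* call and 13 reversed. Total counts over 8 samples ran from 1077 (*Wars2*) to 50979 (*Nars*).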

Other observations

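Cytosolic phenylalanyl-tRNA synthetase is built from the *Farsa* and *Farsb* products, and the 2 mRNAs differed in direction. The ratio of *Farsb* to *Farsa* was 0.728, 0.967, 0.843 and 0.772 in DMSO replicates 1 to 4 and 0.624, 0.742, 0.642 and 0.639 in IOX5 replicates 1 to 4. Within each number the ratio was lower with IOX5, while IOX5 replicate 2 lay above DMSO replicate 1. The mean was 0.828 ± 0.105 in DMSO and 0.662 ± 0.0540 in IOX5 (SD, n = 4; log2 difference -0.32, exact two-sided permutation p = 0.0571). This pair was chosen after the values had been seen.

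All reads on the 20 cytosolic synthetases together summed to 5076 to 5211 CPM, here without TMM factors, in DMSO and 4076 to 4693 in IOX5, with no overlap between the groups. Reads on the 15 mitochondrial genes other than *Lars2* summed to 519.5 to 542 CPM in DMSO and 461.5 to 533 in IOX5, and the groups overlapped.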
